A study of Mus musculus with 4 samples.

Results

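The transcription factors Cdx1, Cdx2, Gata4, Gata6, Hnf4a, Hnf4g, Isx, Osr2 and Klf4, most of which are known for their part in fixing the identity of segments of the gut, were followed through the distal colon of Adamts12-deficient and wild-type mice. They were chosen by gene symbol, and all probe sets that the platform annotation gives to 1 of these 9 genes were taken, 20 of the 45101 on the array. Gene expression was measured in fragments of distal colon on Affymetrix mouse arrays, with 1 array per group and 1 mouse per array. Adamts12 encodes a secreted metalloprotease, and dextran sodium sulfate (DSS) is a polymer that injures the colonic epithelium. The groups were an Adamts12 KO mouse given 2% DSS in its drinking water, an Adamts12 WT mouse given 2% DSS, an untreated Adamts12 KO mouse and an untreated Adamts12 WT mouse. Mice entered at 8 to 10 weeks of age. DSS lasted 7 days in one of the labels and 8 days in another, followed by 1 day without it. The strain background and the deleted part of the gene are not given in the sources used here, and the tissue was whole, with epithelium, muscle and stroma together.

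CDX1 and CDX2 are caudal-type homeodomain proteins, and CDX2 is required for intestinal rather than gastric identity of the epithelium. ISX is a homeodomain protein of the intestine that lies downstream of CDX2 and retinoic acid, and it represses Bco1 and Scarb1, genes of carotenoid cleavage and uptake. GATA4 and GATA6 are zinc finger factors. GATA4 marks the proximal small intestine and keeps ileal genes down there, while GATA6 extends into the colon. HNF4A and HNF4G are paralogous nuclear receptors that drive enterocyte genes, including those of lipid handling and the brush border. OSR2 is an odd-skipped zinc finger factor known from palate and limb development, and KLF4 is a Krüppel-like factor of differentiated surface cells that is needed for goblet cells in the colon.

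Values are on the authors' log2 scale, so a difference of 1 is a 2-fold difference. With 1 array per group there is no spread between replicates, no difference between arrays can be checked against one, and neighbouring values in an order cannot be tested against each other. Values at or under 1.39, the highest that any of 9 Y-linked probe sets reached on the 4 arrays, which all had bright Xist, are called not above background. A filter kept probe sets that exceeded the median of at least 1 array. Of the 20 member probe sets, 15 passed, and 8 of the 9 genes had at least 1 of them. Gata4 had none. Each gene is represented by its passing probe set with the highest mean, among 12189 genes in all.

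Cdx2 and Isx had the same order of values over the 4 arrays on the probe sets used for them, and Hnf4a has 2 start sites in RefSeq. Their start regions are therefore shown. Each window runs from 250 bases before to 50 bases after a RefSeq start (GRCm38.p6), on the strand of the gene. RefSeq windows for 4 of the 9 genes, 5 windows in all, were matched. Capitals mark matches on either strand to short motifs of the GATA factors (AGATAA), CDX factors (TTTATG), HNF4 (CAAAGTC), HNF1 (GTTAAT) and KLF4 (GGGTGTG). On the opposite strand GTTAAT reads ATTAAC.
Cdx2, chr5:147307200-147307499, minus strand: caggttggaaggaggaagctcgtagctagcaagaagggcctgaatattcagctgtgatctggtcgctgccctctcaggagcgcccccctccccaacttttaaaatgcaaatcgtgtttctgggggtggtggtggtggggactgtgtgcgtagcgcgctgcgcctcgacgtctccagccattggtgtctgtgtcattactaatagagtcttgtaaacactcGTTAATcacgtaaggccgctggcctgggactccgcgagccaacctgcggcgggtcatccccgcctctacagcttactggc
Isx, chr8:74872924-74873223, plus strand: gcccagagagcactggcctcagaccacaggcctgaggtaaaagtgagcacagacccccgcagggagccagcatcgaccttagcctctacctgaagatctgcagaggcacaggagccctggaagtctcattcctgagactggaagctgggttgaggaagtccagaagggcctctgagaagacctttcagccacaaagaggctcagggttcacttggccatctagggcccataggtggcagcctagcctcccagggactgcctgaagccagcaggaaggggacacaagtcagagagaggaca
Hnf4a, upstream start, chr2:163506607-163506906, plus strand: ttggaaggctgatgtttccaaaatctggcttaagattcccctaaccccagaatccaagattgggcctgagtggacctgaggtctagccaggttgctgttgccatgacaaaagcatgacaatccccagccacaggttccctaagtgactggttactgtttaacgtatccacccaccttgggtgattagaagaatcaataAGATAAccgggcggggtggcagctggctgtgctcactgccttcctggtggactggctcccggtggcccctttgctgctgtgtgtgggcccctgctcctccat
Hnf4a, downstream start, chr2:163546905-163547204, plus strand: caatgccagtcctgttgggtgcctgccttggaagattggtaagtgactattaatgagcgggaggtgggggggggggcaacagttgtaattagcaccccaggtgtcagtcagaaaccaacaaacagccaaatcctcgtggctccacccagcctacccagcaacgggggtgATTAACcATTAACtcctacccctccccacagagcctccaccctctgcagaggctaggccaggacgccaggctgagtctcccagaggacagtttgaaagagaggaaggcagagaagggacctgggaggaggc
The Cdx2 window held GTTAAT, with its first base 30 bases before the start. The upstream Hnf4a window held AGATAA from 52 bases before the start, and the downstream one held ATTAAC from 81 and from 74 bases before it. None of the 5 motifs was found in the Isx window, nor in that of Klf4 (chr4:55532426-55532725, minus strand), which had a GC content of 74.3% against a median of 52.7% over all windows. Among 32851 windows of the same length, AGATAA was found in 11.2%, TTTATG in 11.9%, CAAAGTC in 4.44%, GTTAAT in 7.1% and GGGTGTG in 7.95%. None of the 5 motifs contains another, and a match describes letters only.

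The arrays were first checked against their labels. The brighter Adamts12 probe set had log2 values of 1.41 on the KO DSS and 2.18 on the WT DSS array, and of 1.42 on the untreated KO and 2.18 on the untreated WT array. The other lay at or under 0.97 on all 4 arrays, so the genotypes were checked only weakly. Column medians were 3.42 to 3.46. The epithelial markers Epcam, Cdh1, Krt8, Krt18, Krt19, Cldn3, Cldn7 and Lgals4 were all bright, with medians of 10.87 on the KO DSS, 11.09 on the WT DSS, 11.33 on the untreated KO and 11.06 on the untreated WT array. The untreated KO array stood apart in genes that mark position. The 4 measured distal colon markers (Hoxb13, Hoxd13, Hoxa13 and Insl5) had medians of 7.22 on the KO DSS, 6.03 on the WT DSS, 2.93 on the untreated KO and 8.96 on the untreated WT array. Hoxb13, the most posterior gene of its cluster, was at 8.40 on the KO DSS and 7.84 on the WT DSS array, and at 2.48 on the untreated KO and 9.47 on the untreated WT array. Without DSS the KO minus WT differences were -6.99 for Hoxb13, -5.46 for Hoxd13, -5.12 for Insl5, a hormone gene of colonic endocrine cells, and -1.84 for Hoxa13. All 4 distal markers were thus lowest on the untreated KO array, though above the background limit, and Hoxb13, Hoxa13 and Hoxd13 lay below that array's median. The WT DSS array differed as well. In WT, DSS against untreated gave -4.60 for Hoxd13, -1.63 for Hoxb13, -0.83 for Insl5 and -0.28 for Hoxa13. With DSS, KO minus WT was 2.98 for Hoxd13, 0.56 for Hoxb13, -0.24 for Hoxa13 and -1.02 for Insl5. Each difference between arrays, above all from the untreated KO array, is read with these values beside it. What part the position of the sampled fragment had in the results below was not tested.

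**Figure D1:**
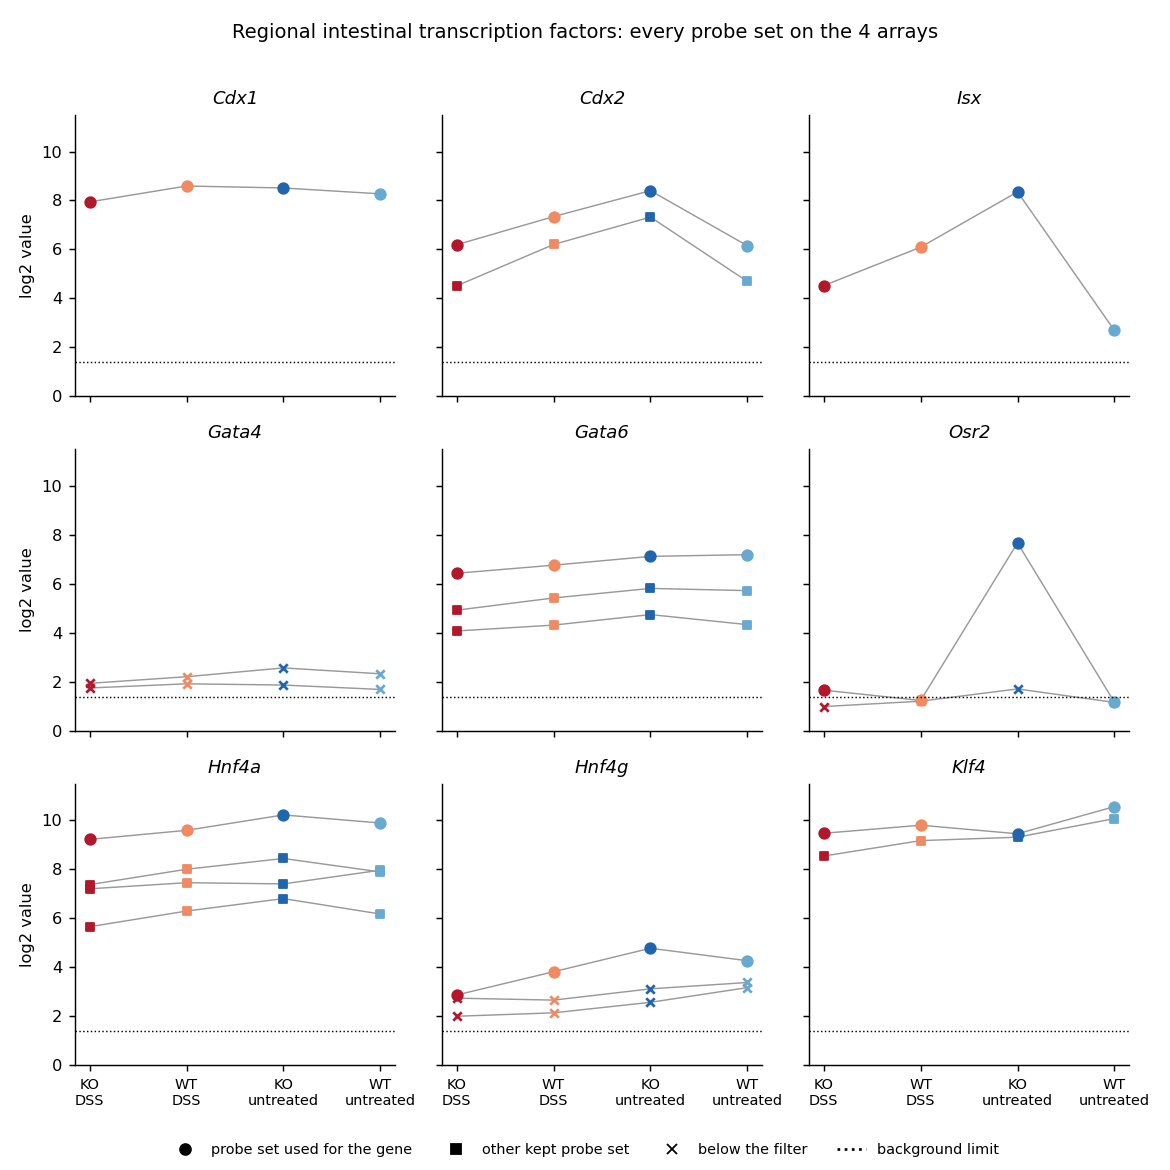
Log2 values (vertical axis) of all 20 member probe sets on the KO DSS, WT DSS, untreated KO and untreated WT arrays, 1 panel per gene, with each line joining 1 probe set and the dotted line at the background limit of 1.39. Isx spans 5.66 and Osr2 at least 6.28 over the arrays, with their highest value on the untreated KO array, while Cdx1 spans 0.65.

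Between genotypes and between treatments the caudal factors differed in the same direction, Cdx1 always by less than Cdx2. Cdx1 had 1 probe set and was bright on all arrays, at 7.94 on the KO DSS and 8.59 on the WT DSS array, and at 8.51 on the untreated KO and 8.27 on the untreated WT array. Its values spanned 0.65, and no pair of arrays was 2-fold apart. Cdx2, on the brighter of its 2 probe sets, was at 6.19 on the KO DSS and 7.34 on the WT DSS array, and at 8.40 on the untreated KO and 6.15 on the untreated WT array. The untreated KO array was therefore the highest and the WT DSS array next, and the other two lay within 0.04 of each other. The dimmer Cdx2 probe set gave 4.51 on the KO DSS and 6.20 on the WT DSS array, and 7.32 on the untreated KO and 4.69 on the untreated WT array, so that only the lowest pair changed places. With DSS, the KO minus WT difference was -1.15 on the brighter and -1.69 on the dimmer probe set. Without DSS, Cdx2 was 2.25 and 2.63 higher in KO than in WT. DSS against untreated gave -2.21 and -2.81 in KO, and 1.19 and 1.51 in WT.

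Isx showed the Cdx2 order with a wider span. Its single probe set read 4.52 on the KO DSS and 6.09 on the WT DSS array, and 8.35 on the untreated KO and 2.69 on the untreated WT array. All 4 values were above background, and the gap between any 2 neighbours in the order was over 1.5. The KO minus WT difference was -1.57 with DSS and 5.66 without it. The DSS minus untreated difference was -3.83 in KO and 3.40 in WT. The KO DSS array still lay 1.83 above the untreated WT array, which was the lowest of the 4.

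Scarb1 and Bco1, the genes that ISX is known to repress, had narrow ranges over the arrays. Scarb1, a receptor for lipoproteins and carotenoids, was at 5.95 on the KO DSS and 5.72 on the WT DSS array, and at 5.66 on the untreated KO and 5.27 on the untreated WT array. On this, the brightest of its 3 kept probe sets, it was lowest where Isx was lowest. Bco1, which encodes the carotene-cleaving oxygenase, did not pass the filter and was at 2.81 on the KO DSS and 2.93 on the WT DSS array, and at 2.82 on the untreated KO and 3.04 on the untreated WT array. Its highest value was where Isx was lowest, but below the filter and over so narrow a range the order cannot be read. Of 17 genes fixed as ISX targets or genes of carotenoid and retinoid handling, 11 were measured. Aldh1a1, a retinoic acid-producing enzyme gene, was at 9.86 on the untreated KO array and between 5.94 and 6.62 on the other three. It was 3.24 higher in KO than in WT without DSS, and higher too were Cyp26a1, whose product breaks retinoic acid down (1.03), and Rara, a retinoic acid receptor gene (1.17). Cyp26a1 passed the filter only through the untreated KO array, so it had to be higher there. The other retinoic acid-producing enzyme genes of the list differed from Aldh1a1. With DSS, Aldh1a3 was 2.29 and Aldh1a2 1.35 higher in KO than in WT, where Aldh1a1 was at -0.66, and without DSS the differences were -0.16 for Aldh1a3 and 0.72 for Aldh1a2. Rbp2, a cellular retinol binding protein of enterocytes, was lower (-1.07).

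Osr2 was high on the untreated KO array and low on the other three. Its brighter probe set was at 1.65 on the KO DSS and 1.23 on the WT DSS array, and at 7.67 on the untreated KO and 1.16 on the untreated WT array. Both WT values were not above background, and the KO DSS value was just above it. Osr2 passed the filter only through the untreated KO array, so it had to be higher there. Without DSS it was at least 6.28 higher in KO than in WT, and in KO it was -6.02 with DSS against untreated. The second probe set lay between 0.98 and 1.70 and was above background on the untreated KO array alone, where it was highest too. Of 15 transcription factor genes of the gut mesenchyme set beside Osr2, 8 were measured. Its paralogue Osr1 did not pass the filter, with 2.76 on the KO DSS, 1.92 on the WT DSS, 2.39 on the untreated KO and 3.18 on the untreated WT array. Tbx3, a T-box factor, was 2.51 higher in KO than in WT without DSS, but like Osr2 it passed the filter only through the untreated KO array. Meis2 and Hand2 were -1.02 and -1.23.

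The GATA genes varied little, with spans of 0.23 to 0.89 over their 5 probe sets. Gata6 had 3 passing probe sets, and the brightest gave 6.43 on the KO DSS and 6.76 on the WT DSS array, and 7.12 on the untreated KO and 7.19 on the untreated WT array. On all 3 the KO DSS array was lowest, and DSS against untreated in KO lay between -0.89 and -0.67. In WT it lay between -0.43 and -0.02. Without DSS the KO minus WT difference was between -0.07 and 0.41. Neither Gata4 probe set passed the filter. The brighter was at 1.93 on the KO DSS, 2.20 on the WT DSS, 2.56 on the untreated KO and 2.32 on the untreated WT array, and the dimmer between 1.68 and 1.91. Both were just above the background limit on every array, the untreated KO array included.

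Ileal bile acid genes, which GATA4 holds down in the jejunum, were high on the untreated KO array. Of 5 such genes, 4 passed the filter, and each was at least 2-fold higher there than on the untreated WT array. Over all genes 3.43% were that much higher. Slc51a, a subunit of the basolateral bile acid exporter, was at 1.99 on the KO DSS and 2.11 on the WT DSS array, and at 8.27 on the untreated KO and 2.41 on the untreated WT array. Without DSS the KO minus WT differences were 5.86 for Slc51a, at least 3.25 for the ileal bile acid transporter gene Slc10a2, 2.02 for the bile acid binding protein gene Fabp6 and 1.86 for the other exporter subunit Slc51b. Slc10a2 and Slc51a passed the filter only through the untreated KO array. Fgf15, an ileal hormone gene, did not pass and lay between 1.89 and 2.42.

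Hnf4a was lowest on the KO DSS array, and so was Hnf4g on its passing probe set. Hnf4a had 4 probe sets, and the brightest gave 9.22 on the KO DSS and 9.59 on the WT DSS array, and 10.22 on the untreated KO and 9.89 on the untreated WT array. All 4 were lowest on the KO DSS array. The highest was the untreated KO array on 3 of them and the untreated WT array on the remaining one, which read 7.20 on the KO DSS and 7.45 on the WT DSS array, and 7.40 on the untreated KO and 7.96 on the untreated WT array. DSS against untreated in KO was between -1.15 and -0.20 over the 4 probe sets, and in WT between -0.51 and 0.12. Without DSS the KO minus WT difference was 0.33, 0.55 and 0.63 on 3 probe sets and -0.56 on the remaining one. Which of the starts shown above each probe set covers was not determined.

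Hnf4g, on its single passing probe set, was at 2.86 on the KO DSS and 3.81 on the WT DSS array, and at 4.77 on the untreated KO and 4.26 on the untreated WT array. Both untreated arrays exceeded both DSS arrays, with a DSS difference of -1.91 in KO and -0.45 in WT. Both of the other probe sets also had their highest values on the untreated arrays but with KO below WT, at 3.11 in KO and 3.37 in WT on one and at 2.56 in KO and 3.16 in WT on the other. The genotype direction of Hnf4g without DSS thus depended on the probe set.

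Klf4 was highest on the untreated WT array. Its brighter probe set gave 9.47 on the KO DSS and 9.80 on the WT DSS array, and 9.45 on the untreated KO and 10.56 on the untreated WT array. The dimmer gave 8.54 on the KO DSS and 9.17 on the WT DSS array, and 9.31 on the untreated KO and 10.07 on the untreated WT array. Between the genotypes, KO minus WT on the brighter and the dimmer probe set was -0.33 and -0.63 with DSS, and -1.11 and -0.76 without it. DSS against untreated gave 0.02 and -0.77 in KO, where the probe sets parted, and -0.76 and -0.90 in WT. Goblet and surface cell genes, set beside Klf4, had medians of 10.29 on the KO DSS, 11.25 on the WT DSS, 10.68 on the untreated KO and 12.09 on the untreated WT array over 10 genes. Without DSS 5 of them were at least 2-fold lower in KO than in WT, where 5.98% of all genes were, and 0 were higher. The 5 were Fcgbp (-2.20), Spink4 (-2.10), Clca1 (-1.72), Retnlb (-1.47) and Tff3 (-1.24), all goblet cell products. The goblet cell genes Muc2 (0.28), Agr2 (-0.07) and Zg16 (-0.64) were not 2-fold lower. With DSS 5 of the 10 were lower in KO, Agr2 (-1.37) among them, where 1.21% of all genes were. Krt20, a keratin of surface cells, spanned only 10.51 to 10.60. Immediate-early genes, a class that responds fast to tissue handling, included 3 of 11 measured that were at least 2-fold lower in KO without DSS (Fos, -2.66, Egr1, -1.99, and Atf3, -1.37), and without DSS Fos read 7.69 in KO and 10.35 in WT. Squamous epithelium markers, from a tissue that also expresses Klf4, were dim, with Krt6a (KO minus WT 0.44 without DSS) alone of 7 passing the filter. Fewer cells of a type and less RNA per cell cannot be told apart in such whole tissue.

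**Figure D2:**
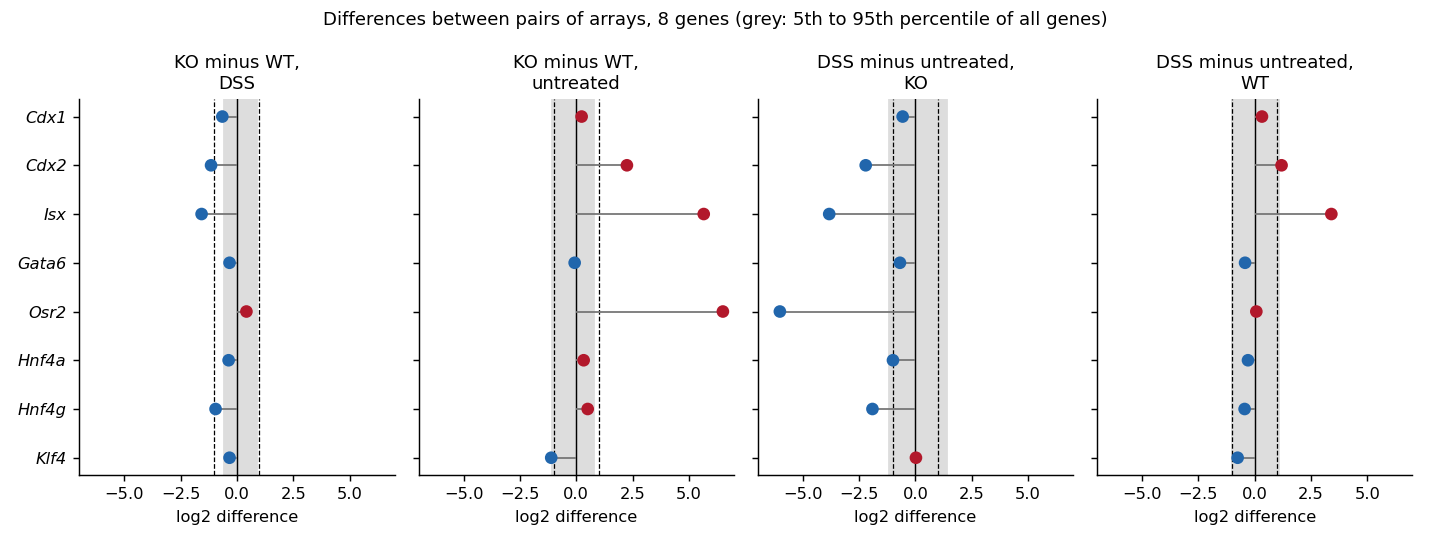
Log2 differences (horizontal axis) of the 8 measured members between 4 pairs of arrays, with dashed lines at 2-fold and a grey band from the 5th to the 95th percentile of 12189 genes, and Osr2 at its measured difference rather than its bound. Cdx2 and Isx lie left of the band in the KO minus WT panel with DSS (-1.15 and -1.57) and right of it in the untreated KO minus WT panel (2.25 and 5.66). Hnf4g (-0.95) and Cdx1 (-0.65) also lie left of the band with DSS. In the untreated panel Osr2 also lies right of it, and Klf4 (-1.11) just left.

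Read by comparison, 0 of the 8 measured genes were at least 2-fold higher and 2 (Cdx2 and Isx) at least 2-fold lower in KO than in WT with DSS. Over all genes 4.22% were that much higher and 1.21% lower. The median difference of the 8 was -0.51, against -0.02 over all genes, and 7 of the 8 had a difference below 0, all but Osr2. Without DSS, 3 (Cdx2, Isx and Osr2) were higher and 1 (Klf4) lower in KO, where 3.43% of all genes were higher and 5.98% lower, with Osr2 fixed as higher by the filter. The medians were 0.42 for the 8 and -0.01 for all genes.

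DSS against untreated in KO gave 0 genes at least 2-fold higher and 5 lower (Cdx2, Hnf4a, Hnf4g, Isx and Osr2), where 10.8% of all genes were higher and 6.68% lower. Hnf4a lay exactly on the 2-fold limit. Osr2 passed the filter only through the untreated KO array, so it had to be lower with DSS, and it enters the median too. In WT, 2 were higher (Cdx2 and Isx) and 0 lower, where 5.82% of all genes were higher and 4.96% lower. The median of the 8 was -1.46 in KO, against 0.06 over all genes, and -0.11 in WT, against -0.01 over all genes. The KO comparison shares its untreated array with the genotype comparison without DSS. Set against the untreated WT array instead, a pair chosen after the values were seen, the KO DSS array had 1 gene at least 2-fold higher (Isx, 1.83) and 2 lower (Hnf4g, -1.40, and Klf4, -1.09), where 6.14% of all genes were higher and 5.05% lower. Likewise, the untreated KO array set against the WT DSS array had 3 genes at least 2-fold higher (Cdx2, 1.06, Isx, 2.26, and Osr2, at least 6.28) and 0 lower, where 4.99% of all genes were higher and 7.65% lower. Here, too, the filter fixed Osr2 as higher. In the first of these pairs Cdx2 differed by 0.04 and Osr2 by 0.49, where the untreated WT value was not above background.

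The distal colon markers were lowest on the untreated KO array, which enters each of the following values. The DSS minus untreated difference in KO less that in WT was -7.23 for Isx, -6.09 for Osr2, -3.40 for Cdx2 and -1.46 for Hnf4g. For Osr2, the WT values were not above background and the filter fixed the sign in KO. The same quantity was -0.89 for Cdx1, -0.70 for Hnf4a and -0.26 for Gata6, and 0.78 for Klf4, the one member above 0. No test of this difference was possible with 1 array per group. Over the 4 arrays, limma's test of DSS against untreated, with genotype as covariate, passed 0 of the 8 genes at an adjusted p under 0.05 (0% of all genes) and 0 at an unadjusted p under 0.05 (11.8% of all genes). The smallest adjusted p of the 8 in limma's test was 0.466, for Hnf4g, with a mean difference of -1.18 (SE 0.47), lower in both genotypes. For KO against WT, with treatment as covariate, limma again passed 0 of the 8 by adjusted p (0% of all genes) and 0 by unadjusted p (1.44%). Klf4 had the smallest unadjusted p there, 0.0737 in limma's fit (adjusted p = 1), with a mean difference of -0.72 (SE 0.29), lower in both treatments. The model counts a difference of the effect between the levels of the other factor as error, and for Isx, whose DSS differences were -3.83 in KO and 3.40 in WT, the SE was 1.90.

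Genes set beside the caudal and HNF4 factors went with them in some comparisons and not in others. Of 12 CDX-linked genes 10 were measured. With DSS, Gucy2c (-1.11), the receptor for guanylin, and Mep1a, exactly on the 2-fold limit, were lower in KO, and 0 were 2-fold higher. Without DSS, Car1, a carbonic anhydrase of colonocytes, was 2.71 higher in KO, the meprin gene Mep1a 1.99 and the drug efflux pump gene Abcb1a 1.35, while the chloride exchanger gene Slc26a3 was lower (-1.90). Cdh17, an adhesion protein whose gene is a known CDX2 target, lay between 10.08 and 10.12 on all 4 arrays. The median KO minus WT difference of the 10 was -0.56 with DSS and 0.36 without it. In WT, DSS against untreated gave 0 of the 10 higher, though Cdx2 was 1.19 higher. There 3 were lower (Abcb1a, -1.30, Mep1a, -1.30, and Vdr, -1.26), where 4.96% of all genes were.

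Of 16 HNF4-linked genes 8 were measured, and 7 of the 8 others, mostly apolipoprotein genes, had probe sets below the filter. Fabp2, which encodes a carrier of fatty acids in enterocytes, was at 4.51 on the KO DSS and 8.07 on the WT DSS array, and at 10.62 on the untreated KO and 6.72 on the untreated WT array. Like Cdx2 and Isx it was highest on the untreated KO array, with the WT DSS array next. Alpi, the intestinal alkaline phosphatase gene, read 2.89 on the KO DSS and 3.75 on the WT DSS array, and 6.24 on the untreated KO and 2.49 on the untreated WT array, which is the Isx order. Without DSS 3 were at least 2-fold higher in KO (Fabp2, 3.90, Alpi, 3.75, and the brush border cadherin gene Cdhr2, 1.12) and 1 lower (the thyroid hormone carrier gene Ttr, -2.78). With DSS against untreated in KO, 6 of the 8 were lower, where 6.68% of all genes were. In WT, Fabp2 (1.35) and Alpi (1.26) were higher and Ttr (-2.62) lower, where Hnf4a was at -0.30.

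**Figure D3:**
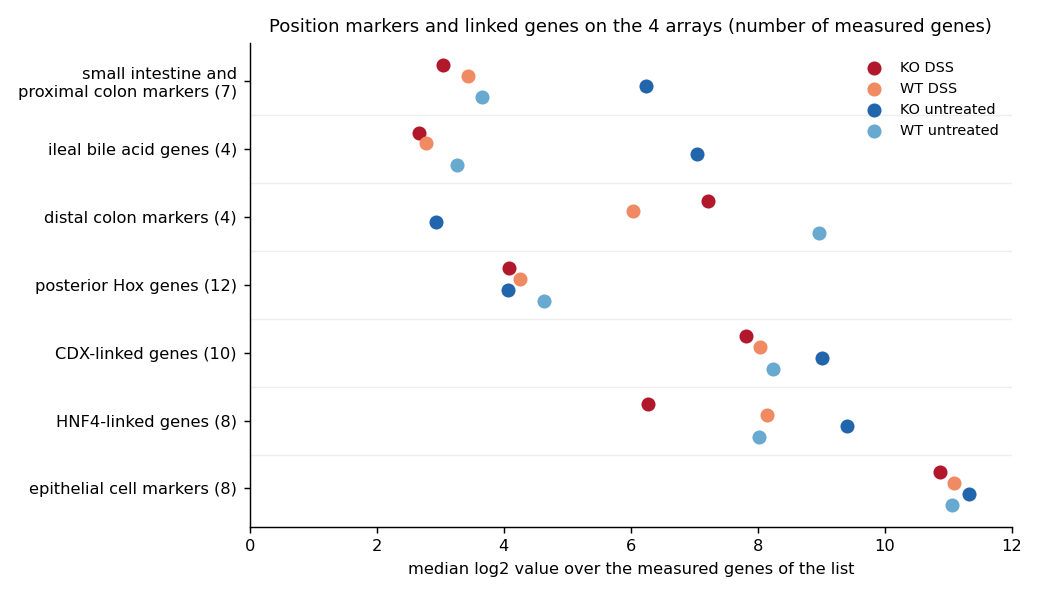
Median log2 value (horizontal axis) over the measured genes of 7 lists on the KO DSS, WT DSS, untreated KO and untreated WT arrays, with the number of genes in brackets. Small intestine and proximal colon markers reach 6.24 on the untreated KO array and distal colon markers 2.93, while epithelial cell markers lie between 10.87 and 11.33 on all arrays. Of the former, Cubn and Slc10a2 passed the filter only through the untreated KO array, as did Slc10a2 and Slc51a of the ileal bile acid genes. These genes had to be higher there, and genes below the filter are left out of the medians.

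Markers of position also differed on the untreated KO array, where Cdx2, Isx and Osr2 were at least 2-fold above untreated WT. Of the other measured members none was 2-fold higher there, and Klf4 was lower. The list of small intestine and proximal colon markers held 12 genes, 7 of them measured, with medians of 3.04 on the KO DSS, 3.43 on the WT DSS, 6.24 on the untreated KO and 3.66 on the untreated WT array. Without DSS 6 of the 7 were at least 2-fold higher in KO, where 3.43% of all genes were. Among them was Hoxb6 (3.35), a Hox gene from the middle of its cluster, and the glucose transporter gene Slc5a1 differed by 0.20. Cubn and Slc10a2, both among the 6, passed the filter only through the untreated KO array and had to be higher there. Lct, Apoa1, Apoa4 and Fabp1, genes of small intestinal enterocytes, did not pass the filter on any array. Of 14 posterior Hox genes 12 were measured. With DSS, 2 were at least 2-fold higher in KO (Hoxd10 and Hoxd13) and 0 lower, and Hoxd13 read 7.20 on the KO DSS and 4.22 on the WT DSS array. In KO without DSS 7 were lower by 2-fold or more, while Hoxb9 and Hoxd8 were higher. Over all genes 5.98% were that much lower and 3.43% higher. Of the 7, Hoxd11 passed the filter only through the untreated WT array. Their part in the values of Cdx2, Isx and Osr2 was not tested.

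Markers of other cell types moved too. With DSS, KO exceeded WT at least 2-fold in 9 of 10 leukocyte markers and in 4.22% of all genes. The medians of these markers were 8.04 on the KO DSS, 5.99 on the WT DSS, 5.20 on the untreated KO and 6.88 on the untreated WT array. Without DSS the B cell genes Ms4a1 (-2.56) and Cd79b (-2.27) and the leukocyte membrane protein gene Laptm5 (-1.21) were lower in KO. None of the 8 epithelial markers was 2-fold apart between KO and WT with DSS, where their median difference was -0.09, and without DSS their differences ran from -0.66 (Cdh1) and -0.44 (Krt18) up to 0.31 (Cldn7) and 0.48 (Cldn3). In KO, DSS against untreated gave -0.27 for the epithelial median, with Cldn3 at -1.06, beside the median of -1.46 for the members. Smooth muscle markers had medians of 9.05 on the KO DSS, 8.96 on the WT DSS, 8.68 on the untreated KO and 9.52 on the untreated WT array. Synm (-2.07), Cnn1 (-1.35), Tagln (-1.21) and Actg2 (-1.07), genes of the contractile cytoskeleton and its filaments, were lower in KO without DSS. Fibroblast markers had medians of 8.40 on the KO DSS, 7.57 on the WT DSS, 7.65 on the untreated KO and 7.82 on the untreated WT array, and differences without DSS from -0.66 (Pdgfra) and -0.35 (Col3a1) up to -0.10 (Col1a2) and 0.05 (Lum). With DSS, 8 of 9 measured proliferation genes were at least 2-fold higher in KO, and all 9 in WT. KLF4 is a known inhibitor of such genes. Over all genes 10.8% were that much higher in KO and 5.82% in WT. Without DSS, KO minus WT of the proliferation genes ran from -0.30 (Mki67) and -0.10 (Rrm2) up to 0.20 (Top2a) and 0.38 (Mcm3). Whether the mix of cells has a part in the members' values was not tested.

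Other transcription factors of the gut epithelium were also examined. Of 31 listed, 21 were measured. Without DSS, Ppara (1.99), Pparg (1.54) and the bile acid receptor gene Nr1h4 (1.30) were higher in KO, and Foxa2, a forkhead factor, was lower (-2.51). With DSS against untreated in KO, 8 were at least 2-fold lower and 2 higher, with a median of -0.80. Over all genes 6.68% were lower and 10.8% higher. Of the 8 measured members 5 were lower there, with Osr2 fixed as lower by the filter. In WT, 0 of the 21 were higher and 3 lower (Maf, Tcf7l2 and the vitamin D receptor gene Vdr). Over all genes 5.82% were higher and 4.96% lower. Cdx4 and Pdx1, which belong to earlier or more proximal gut, did not pass the filter.

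Likeness of values over the arrays was measured as the root mean square difference after each gene's mean over the 4 arrays was subtracted, among 11765 other named genes. Closest to Osr2 were Slc51a (0.338), the neurotensin gene Nts (0.416) and the glucuronosyltransferase gene Ugt2b5 (0.418), and only these 3 lay within 0.5. Like Osr2, all 3 passed the filter only through the untreated KO array, so they had to be highest there. Closest to Isx were the carboxylesterase genes Ces1f (0.477) and Ces1g (0.631) and, between them, B4galnt1 (0.629), a ganglioside synthase gene, and only Ces1f lay within 0.5. Closest to Cdx2 were the phospholipase gene Pla2g12b (0.147), Nkain1 (0.173) and the ETS factor gene Etv5 (0.175), with 119 genes within 0.5. Pla2g12b, too, passed the filter only through the untreated KO array. For the members with narrow spans the measure says little, since 1175 genes lay within 0.5 of Hnf4g and more of Hnf4a and Klf4. With 4 arrays, such likeness describes values only.

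**Figure D4:**
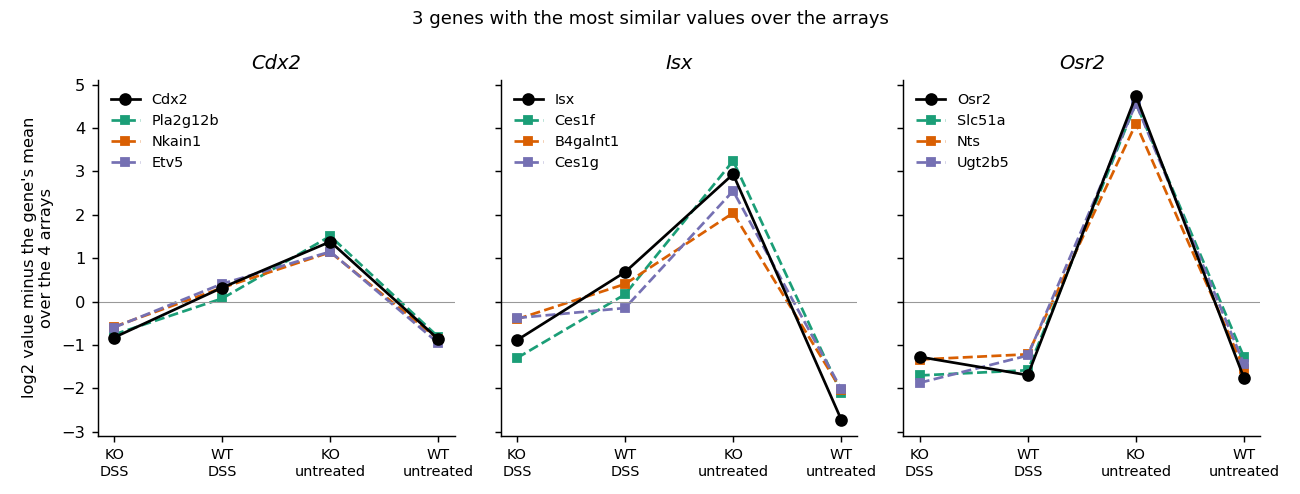
Log2 values minus each gene's mean over the 4 arrays (vertical axis) of Cdx2, Isx and Osr2 (black) and of the 3 genes closest to each (coloured, dashed) on the KO DSS, WT DSS, untreated KO and untreated WT arrays. Osr2 and its neighbours Slc51a, Nts and Ugt2b5 are high on the untreated KO array alone, the only array through which they passed the filter. Isx and Cdx2 have the WT DSS array as the second highest.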

How the data were processed

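Total RNA from distal colon was extracted with Trizol and biotinylated cRNA hybridised to Affymetrix arrays, per the labels' protocols. The values the authors deposited were read as log2, since the highest, 13.23, would stand for 556821 on a natural log scale, beyond the 65535 of a 16-bit scanner. How the authors summarized and normalized the log2 values before they were deposited is not given in the sources used, and no further normalization was applied.

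Probe sets were named through the platform annotation, with symbols updated by gene number through RefSeq (GRCm38.p6). Of 45101 probe sets, 34945 had 1 symbol, of which 34741 matched, 932 had several, 9160 were unnamed and 64 were controls. After the filter at the array median, 12189 genes were left. Pairs of arrays were compared by log2 differences, with 2-fold as threshold and no test. The effects of DSS and of genotype were fitted together on all 4 arrays and tested in R 4.3.3 with limma 3.58.1 (lmFit, then eBayes using the intensity trend, two-sided, Benjamini-Hochberg over all genes, threshold 0.05), with 1 residual degree of freedom. The code of limma's DSS test was tested on simulated data, where it had to find the added changes only with a low spread. How often it finds changes at the spread of these arrays is not given here. Python 3.11.15 with pandas 2.3.3 and matplotlib 3.10.9 was used otherwise.

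The members, the 17 other gene lists and the motifs were chosen with earlier results of these data known. Named were all members with every probe set, Adamts12, of each list the 2 largest and 2 smallest KO minus WT differences without DSS or, where 5 or fewer were 2-fold apart, all of these, and the 3 genes closest to each member whose values spanned at least 1 on the log2 scale. Others, such as Scarb1, Cdh17, Aldh1a1, Osr1 and Krt20, were chosen after their values were seen. Alternatives covered normalization, the filter, the choice of probe set, the model and leaving out each array. The number of arrays limits the precision.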

Additional observations from a re-analysis of the deposited data

Results flagged for a closer look

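Of the 8 measured members, 5 had DSS differences of opposite sign in the genotypes on their brightest probe set, where 40.3% of all 12189 genes did. On the log2 scale they were -3.83 in KO and 3.40 in WT for Isx, -2.21 in KO and 1.19 in WT for Cdx2, -6.02 in KO and 0.07 in WT for Osr2, -0.57 in KO and 0.32 in WT for Cdx1, and 0.02 in KO and -0.76 in WT for Klf4. Both Osr2 values behind the WT difference were not above background, so its sign there is not measured, and the filter fixed its sign in KO. The KO difference of Klf4 lay close to 0. Klf4's second probe set gave -0.77 in KO and -0.90 in WT, with no change of sign, and both Cdx2 probe sets had opposite signs. With 1 array per group, none of these differences between genotypes was tested.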

How the results depend on the processing

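The counts of members at least 2-fold apart were the same or within 1.5 times under the alternatives tried, with the following exceptions. When a gene's probe sets were averaged, or with the untreated KO array set against the WT DSS array, 0 members were lower in KO without DSS, in place of Klf4. The WT DSS pairing was chosen after seeing the data. For KO with DSS against untreated, 8 of the 15 kept probe sets were lower, in place of 5 of 8 genes. The 15 include several probe sets of the same gene, and the share over all kept probe sets was not counted. Against the untreated WT array 2 genes were lower and 1 higher. The counts against the untreated KO array include Osr2, fixed as lower by the filter. Hnf4a was at -0.97 in that comparison with median centring, and at -0.20 when probe sets ending in _s_at or _x_at were left out. No paired analysis was possible because each group has 1 array.

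In limma, 0 members passed in any of 28 fits. Mean differences changed sign when an array was left out (without the other factor), since each group has 1 array. For DSS they ranged from -3.04 to 2.62 for Isx, -6.23 to 0.28 for Osr2, -1.64 to 0.61 for Cdx2, -0.45 to 0.20 for Cdx1 and -0.93 to 0.18 for Klf4. Osr2 passed the filter only through the untreated KO array, so the sign of its difference from that array was fixed. For KO they ranged from -0.56 to 1.66 for Cdx2, -1.18 to 0.73 for Hnf4g, -0.52 to 0.48 for Hnf4a, -0.55 to 0.14 for Gata6 and -0.49 to 0.08 for Cdx1. Quantile normalization turned the KO mean difference of Hnf4a from -0.02 to 0.02. Over the alternatives that kept all 4 arrays, the lowest adjusted p of a member in limma was 0.254 for DSS and 0.999 for KO. The 0.254 was that of Hnf4a, in the fit without the other factor.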
